A study of Mus musculus with 9 samples.

Results

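Expression of 10 genes of glutathione synthesis and of the NRF2 antioxidant response was followed in mouse liver RNA-seq. They were chosen by name: the regulators Nfe2l2 and Keap1, the glutathione genes Gclc, Gclm, Gss and Gsr, and the thiol and detoxification genes Nqo1, Txnrd1, Srxn1 and Ephx1. All 10 were found among 26345 named gene entries with a known transcript. The livers came from male mice aged 8 weeks by the labels, labelled C57BL/6 in the PF and AF groups. In the pair-fed (PF) group, 3 livers came from mice on an isocaloric control liquid diet for 5 weeks, and in the alcohol-fed (AF) group, 3 came from mice on the alcohol-containing Lieber-DeCarli liquid diet for as long. The remaining 3 livers (AF with MNA) came from AF mice that also received MNA, an agent with no longer name in the labels, injected intraperitoneally every day at a dose of 50 mg/kg. The strain labels of these last 3 libraries read C57BL/7, C57BL/8 and C57BL/9, so that the strain as labelled and MNA cannot be told apart. The comparison of the AF group with the PF group is the one the study was designed for. The labels number the libraries within a group without naming the animals, and p values here measure the spread between these libraries.

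Ephx1, Nqo1, Srxn1 and Gclc were upregulated in the AF group against the PF group, by 2.05-fold for Gclc to 3.58-fold for Nqo1 (n = 3 per group), where 4.3% of all tested genes passed the same threshold. Their adjusted p values by limma lay between 0.117 and 0.295, and the calls of Gclc, Nqo1 and Srxn1 did not hold in every alternative fit. Gclm, the partner subunit of Gclc, did not rise with it and was at 9.00 ± 5.20 FPKM (SD) in the AF group against 13.9 ± 1.63 FPKM in the PF group. The transcripts of the regulator NRF2 (Nfe2l2) and of its inhibitor Keap1 did not pass the test in any comparison. With MNA no gene of the 10 passed the threshold against the AF group, where 1.98% of all tested genes did, and Ephx1, Nqo1 and Gclc were again above the PF group, where 3.89% did.

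NRF2 is a transcription factor that is held in the cytoplasm and sent for degradation by KEAP1. Electrophiles and oxidants modify cysteines of KEAP1, NRF2 then accumulates, pairs with small MAF proteins and binds antioxidant response elements near its target genes. Much of this control acts on the protein, which RNA-seq does not measure. Glutathione, the most abundant thiol of the hepatocyte, is made in successive steps. Glutamate-cysteine ligase, a heterodimer of the catalytic subunit GCLC and the modifier subunit GCLM, joins glutamate to cysteine, and glutathione synthetase (GSS) adds glycine. The liver uses glutathione against peroxides and against reactive products of ethanol oxidation.

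Expression was given in FPKM (fragments normalised to transcript length and to library depth), which gives levels per transcript length. A gene was called where limma's unadjusted p was under 0.05 and the log2 ratio of the group means of FPKM (log2 FC) was above 1 or below −1, the limits that the methods of the study give for lncRNAs, and p values after Benjamini-Hochberg adjustment over all tested genes are given beside it. The libraries held between 57800660 and 82179248 reads. AF replicate 3 and AF with MNA replicate 1 stood apart, with 9433 and 8934 FPKM summed over assembled intron transcripts against 2477 to 4937 FPKM in the other libraries. Hepatocyte markers were abundant, with summed FPKM of 5 of them between 14747 and 22736 in the 9 libraries. The sum of 5 cholangiocyte markers (5 of 5 measured, none at 0) was 3.27 to 4.31 FPKM in PF, 4.86 to 9.12 in AF and 3.34 to 6.33 with MNA. The sum of 5 endothelial markers (5 of 5 measured, none at 0) was 19.7 to 24.3 FPKM in PF, 24.9 to 36.2 in AF and 30.4 to 33.8 with MNA. The sums of macrophage, stellate cell, neutrophil and lymphocyte markers overlapped between the groups in each comparison, and the neutrophil sum, with Ly6g, Mpo, Retnlg, S100a8 or S100a9 listed at 0 in some libraries, reached 0.75 FPKM in PF and 2.03 FPKM in AF. Single markers did separate. Between AF and PF, S100a8, Pecam1, Sox9, Spp1 and the stellate cell genes Des and Col1a1 were higher without overlap. Des was at 0.59 to 0.88 FPKM in PF and 1.26 to 1.77 FPKM in AF. Vsig4, the stellate cell gene Reln, the erythroid Alas2 and the hepatocyte marker Cyp2e1 were lower without overlap. Alas2 was at 37.2 to 43.3 FPKM in PF and 6.66 to 18.2 FPKM in AF, Cyp2e1 at 3104 to 3754 and 2620 to 3067 FPKM. The other stellate cell markers, Lrat, Dcn and Rgs5, overlapped. Of all tested genes, 18.3% did not overlap between AF and PF. The globin Hbb-bs, far more abundant than Alas2, overlapped between them at 163 to 236 FPKM in PF and 156 to 391 FPKM in AF. With MNA against PF, Pecam1, Clec4g, Kdr and Nkg7 were higher without overlap (9.54% of all tested genes were) and Alas2 was lower (11.9% were). Against AF, S100a8 and Des were lower without overlap with MNA (4.58% of all tested genes were) and Reln was higher. In these bulk samples fewer cells of a type and less RNA per cell cannot be told apart, and the part of these cell types in the results was not tested.

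Among the regulators, Nfe2l2 (chr2:75675513-75704641, minus strand, GRCm38) measured 4.24, 2.92 and 8.65 FPKM in the PF livers, 7.40, 1.99 and 3.28 FPKM in the AF livers and 8.07, 3.46 and 4.33 FPKM with MNA. It was the most variable gene of the 10 in each group, with a coefficient of variation from 46.3% to 66.9%, and the groups overlapped. The log2 FC of AF over PF was −0.32 (adjusted p = 0.846 by limma), and the 95% confidence interval of the difference on the log2(FPKM + 1) scale, −1.41 to 0.82, was wide. Keap1 (chr9:21229730-21239361, minus strand) stood at 7.25, 5.50 and 6.69 FPKM in PF, 6.63, 6.71 and 6.53 FPKM in AF and 6.27, 7.61 and 5.39 FPKM with MNA. Its group means lay between 6.42 and 6.62 FPKM. The difference of AF from PF was 0.03 on the log2(FPKM + 1) scale with an interval of −0.28 to 0.35 (adjusted p = 0.947, limma).

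Gclc (chr9:77754535-77794485, plus strand), the catalytic subunit of the rate-limiting enzyme, measured 4.86, 2.80 and 3.34 FPKM in PF, 5.13, 9.51 and 7.89 FPKM in AF and 7.66, 9.13 and 6.10 FPKM with MNA. Each AF library was above each PF library, though AF replicate 1 exceeded PF replicate 1 by little. The log2 FC of AF over PF was 1.03 (2.05-fold, adjusted p = 0.295, limma), and the difference was 0.86 ± 0.252 (SE) on the log2(FPKM + 1) scale. This call was the least stable of the 4 in the AF group: the log2 FC stayed under 1 in 4 of the 6 fits with 1 library left out, from 0.83 without AF replicate 2, through 0.87 without PF replicate 2 and 0.97 without PF replicate 3, to 0.997 without AF replicate 3.

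Gclm (chr3:122245557-122270732, plus strand), the modifier subunit, measured 15.7, 12.5 and 13.35 FPKM in PF, 5.16, 14.9 and 6.92 FPKM in AF and 6.25, 8.03 and 7.88 FPKM with MNA. The AF libraries split, with replicates 1 and 3 below every PF library and replicate 2 within the PF range. The log2 FC of AF over PF was −0.62 (adjusted p = 0.502, limma), and when AF replicate 2 was left out it became −1.20 and passed the threshold (adjusted p = 0.128). The deposited Gclm entry pools 8 known transcripts, of which 1 belongs in GENCODE M21 to another gene, Gm6061.

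Gss (chr2:155563181-155592810, minus strand), which completes glutathione, measured 5.73, 5.63 and 4.14 FPKM in PF, 6.51, 6.55 and 5.14 FPKM in AF and 4.96, 5.07 and 5.67 FPKM with MNA. The ranges overlapped, and the log2 FC of AF over PF was 0.23 (adjusted p = 0.675, limma, interval −0.19 to 0.59 on the log2(FPKM + 1) scale). Gsr (chr8:33652523-33698163, plus strand), glutathione reductase, which regenerates reduced glutathione with NADPH, measured 19.0, 14.97 and 13.4 FPKM in PF, 25.1, 23.1 and 21.4 FPKM in AF and 20.6, 21.9 and 19.00 FPKM with MNA. Every AF library was above every PF library, and the log2 FC of 0.56 (1.47-fold, adjusted p = 0.302, limma) was below the fold threshold.

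Txnrd1 (chr10:82833951-82897712, plus strand), the cytosolic thioredoxin reductase, measured 7.13, 6.23 and 6.37 FPKM in PF, 6.89, 9.00 and 6.34 FPKM in AF and 7.42, 9.19 and 8.01 FPKM with MNA. The AF and PF ranges overlapped (log2 FC 0.17, adjusted p = 0.771, limma), whereas the 3 libraries with MNA lay above the 3 PF libraries. Srxn1 (chr2:152105516-152111376, plus strand), sulfiredoxin, which repairs over-oxidized peroxiredoxins, measured 1.43, 1.06 and 1.44 FPKM in PF, 2.59, 4.46 and 2.65 FPKM in AF and 2.09, 2.11 and 2.23 FPKM with MNA. The 3 groups did not overlap each other, with PF lowest and AF highest. Srxn1 was 2.47-fold higher in AF than in PF (adjusted p = 0.188, limma), a difference of 0.85 ± 0.195 (SE) on the log2(FPKM + 1) scale. Without AF replicate 2, its highest library, the ratio came to the fold threshold without exceeding it.

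Nqo1 (chr8:107388225-107403206, minus strand), the quinone reductase that is widely used as a readout of NRF2, measured 2.23, 1.26 and 1.84 FPKM in PF, 10.05, 4.94 and 4.09 FPKM in AF and 4.50, 5.08 and 6.91 FPKM with MNA. Its PF levels lay below all 6 libraries of alcohol-fed mice. It rose 3.58-fold in AF over PF (log2 FC 1.84, adjusted p = 0.190, limma), by 1.34 ± 0.309 (SE) on the log2(FPKM + 1) scale. Ephx1 (chr1:180976210-181020904, minus strand), microsomal epoxide hydrolase, was the most abundant of the 10, at 74.45, 68.9 and 55.6 FPKM in PF, 254, 126 and 203 FPKM in AF and 199, 221 and 197 FPKM with MNA. The lowest library of alcohol-fed mice, AF replicate 2, was still well above the highest PF library. Ephx1 rose in AF over PF with a log2 FC of 1.55 (adjusted p = 0.117, limma), by 1.49 ± 0.277 (SE) on the log2(FPKM + 1) scale. The calls of Ephx1 and Nqo1 held with each of the 6 libraries left out in turn, and the Ephx1 entry includes 1 transcript of another gene, Gm36961, among its 5.

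**Figure D1:**
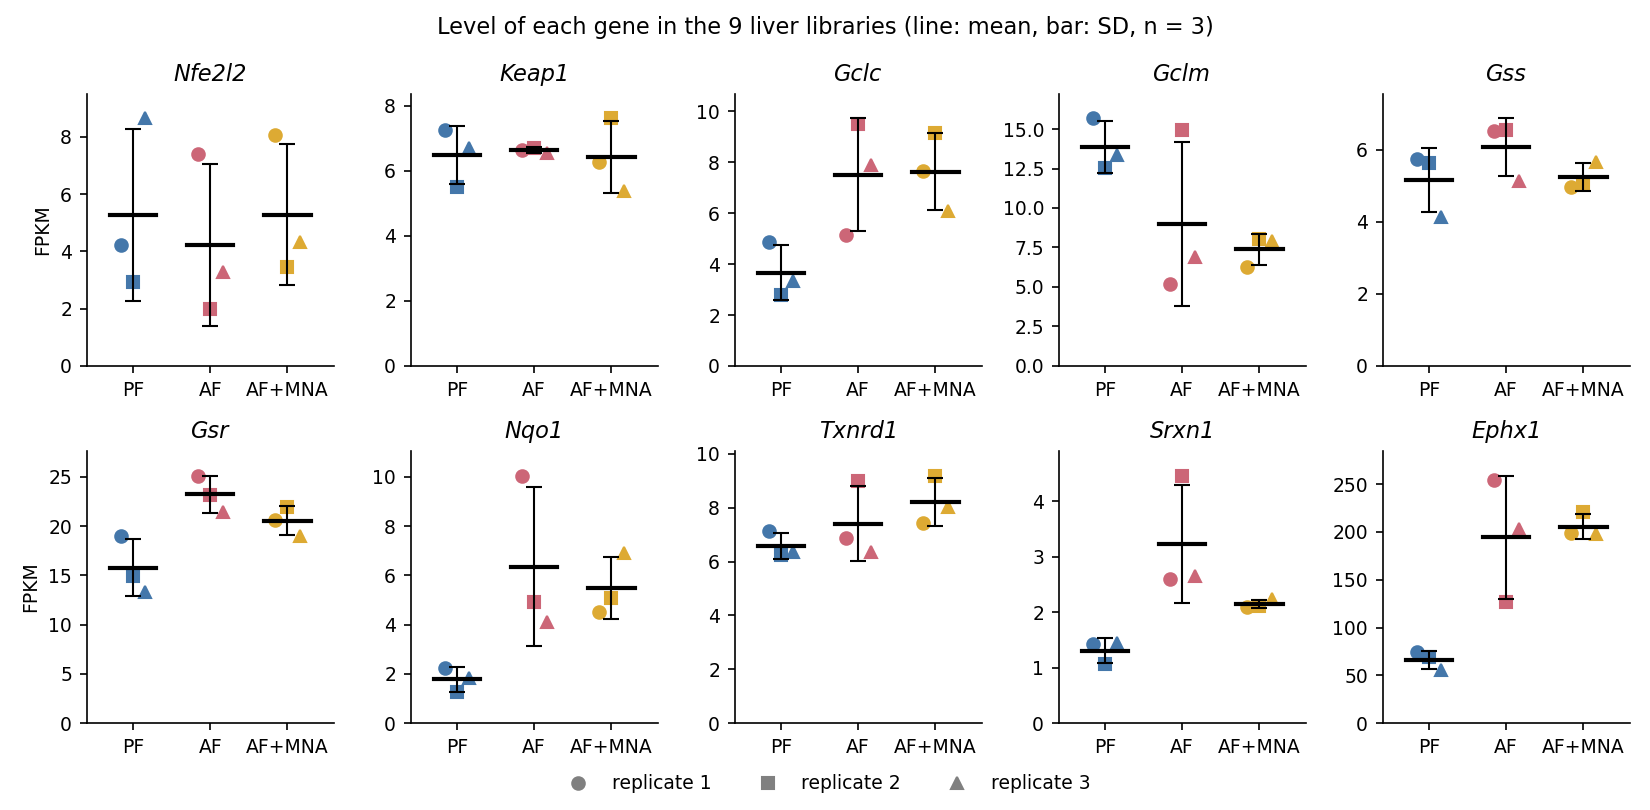
FPKM of the 10 genes in each library, by group (PF, AF and AF with MNA), with points for the libraries and the group mean and SD (n = 3 per group). Nqo1 and Ephx1 lie higher in all 6 libraries of alcohol-fed mice than in the 3 PF libraries, while Nfe2l2 spreads over a like range in the 3 groups and Gclm has 1 AF library (14.9 FPKM) among the PF values.

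Counted together, 4 of the 10 genes passed the threshold in the AF group against the PF group, all upregulated, where 4.3% of the 12268 tested genes passed it in either direction and 1.95% passed it upward. The ranges did not overlap for 5 of the 10, Gsr being the addition, against 18.3% of all tested genes. No gene of the 10 had an adjusted p under 0.05 by limma (0.326% of all tested genes did), while 5 had an unadjusted p under 0.05, against 11.7%. The median log2 FC was 0.394 over the 10 genes and −0.031 over all tested genes. With an ordinary linear model carrying a library-size covariate, 2 of the 4 stayed past the threshold (Srxn1 and Ephx1), and Nqo1 and Gclc no longer had an unadjusted p under 0.05.

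Promoter sequences of 8 of the 10 genes were available from RefSeq (GRCm38.p6), without those of Gclc and Gsr, and were searched for the core of the antioxidant response element, TGACNNNGC, on both strands from 250 bases before to 50 bases after each start site. The core was present for 4 of the 8 genes (Nfe2l2, Gclm, Txnrd1 at the second of its 3 start sites, and Srxn1), compared with 14.0% of 27025 genes in the table. The longer form TGANTCAGC, searched after the sequences had been read, was present in Srxn1 alone of the 8 and in 1.37% of all genes, and a match of it with C at the N is also a match of the core. The 250 bases before the start are shown for Srxn1 and Gclm, which hold a match there, and for Nqo1, which rose most and holds none in this window. Each is written 5′ to 3′ along the gene, and capitals mark the match, TGANTCAGC on the gene's strand in Srxn1 and TGACNNNGC on the opposite strand in Gclm.
Srxn1, chr2:152105274-152105523, plus strand: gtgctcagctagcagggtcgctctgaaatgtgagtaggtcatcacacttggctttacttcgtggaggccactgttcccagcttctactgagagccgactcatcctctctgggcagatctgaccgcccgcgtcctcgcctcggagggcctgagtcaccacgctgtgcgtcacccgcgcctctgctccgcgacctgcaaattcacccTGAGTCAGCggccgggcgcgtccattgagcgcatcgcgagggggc
Gclm, chr3:122245307-122245556, plus strand: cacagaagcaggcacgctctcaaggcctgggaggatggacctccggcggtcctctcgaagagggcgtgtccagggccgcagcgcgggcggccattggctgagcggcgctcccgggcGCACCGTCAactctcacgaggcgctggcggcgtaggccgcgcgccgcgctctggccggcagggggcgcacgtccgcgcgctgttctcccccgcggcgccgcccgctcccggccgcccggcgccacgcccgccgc
Nqo1, chr8:107403206-107403455, minus strand: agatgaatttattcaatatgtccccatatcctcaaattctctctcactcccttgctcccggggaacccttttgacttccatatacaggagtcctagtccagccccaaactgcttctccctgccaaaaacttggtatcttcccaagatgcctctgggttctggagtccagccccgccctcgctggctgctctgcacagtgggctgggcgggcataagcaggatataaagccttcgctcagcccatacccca
Counted from the start site, the Srxn1 match begins at −45 and the Gclm match at −134, and the TGACNNNGC match of Srxn1 begins at 29, inside the transcript. Of the 4 genes with a core match, Srxn1 was upregulated in the AF group and Nfe2l2, Gclm and Txnrd1 were not, while of the 4 without a match in these windows Nqo1 and Ephx1 were upregulated and Keap1 and Gss were not. A match describes these letters only, and elements farther from the start were not searched.

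MNA was set against alcohol feeding alone in the comparison of the AF with MNA group with the AF group. No gene of the 10 passed the threshold, against 1.98% of 12214 tested genes, and none had an unadjusted p under 0.05 by limma (5.22% of all tested genes did), while Srxn1 had one in the covariate model (adjusted p = 0.769) and in limma's fit to all 9 libraries (adjusted p = 0.808). Srxn1 came nearest, at 2.14 ± 0.0757 FPKM (SD, n = 3) with MNA against 3.23 ± 1.06 FPKM in AF. It was the 1 gene of the 10 whose groups did not overlap, all 3 libraries with MNA lying lower, as for 4.58% of all tested genes. Its log2 FC was −0.59 (adjusted p = 0.940, limma), with an interval of −0.85 to 0.04 on the log2(FPKM + 1) scale, and −0.29 without AF replicate 2. The intervals of the other genes all spanned 0, among them the narrow −0.47 to 0.13 of Gsr, the wider −0.97 to 0.69 of Gclm and the widest, −0.70 to 1.37, of Nfe2l2. Ephx1 had a log2 FC of 0.08 (interval −0.50 to 0.77), Nqo1 of −0.21 (interval −0.86 to 0.64) and Gclc of 0.02 (interval −0.53 to 0.61), and differences within these intervals were not excluded. With the intron-rich AF replicate 3 and AF with MNA replicate 1 left out, an alternative chosen after the data were seen, the count stayed 0 and the log2 FC of Srxn1 was −0.70 (adjusted p = 0.743, limma).

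Against the PF group, the AF with MNA group shares its PF libraries with the comparison above, and the values stand side by side without a test between them. Ephx1 (log2 FC 1.63, 3.10-fold, adjusted p = 0.0173), Nqo1 (1.63, 3.09-fold, adjusted p = 0.0903) and Gclc (1.06, 2.08-fold, adjusted p = 0.163) were upregulated by limma, which makes 3 of the 10 where 3.89% of 12276 genes passed the threshold. Ephx1 was the gene of the 10 with an adjusted p under 0.05, against 0.432% of all tested genes. Without PF replicate 2 this was lost (adjusted p = 0.0591 by limma), as without AF with MNA replicate 2 (0.0542) or replicate 3 (0.0630). It was also lost with the covariate model (adjusted p = 0.310) and in limma's fit with the replicate number as a block. The Gclc call was lost with the covariate model (adjusted p = 0.556) and fell below the fold threshold without PF replicate 2 (0.90), PF replicate 3 (0.99) or AF with MNA replicate 2 (0.91). Gclm was lower in each library with MNA than in each PF library, as were 11.9% of all tested genes, at 7.39 ± 0.987 against 13.9 ± 1.63 FPKM (SD, n = 3). Its log2 FC of −0.91 (adjusted p = 0.0979, limma) missed the fold threshold. Srxn1 (log2 FC 0.71, adjusted p = 0.165) and Txnrd1 (0.32, adjusted p = 0.337) were higher in every library with MNA than in every PF library and missed the fold threshold too. With Ephx1, Nqo1 and Gclc this made 5 of the 10 genes higher without overlap, against 9.54% of all tested genes. The median log2 FC over the 10 genes was 0.349, beside −0.0232 over all tested genes.

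**Figure D2:**
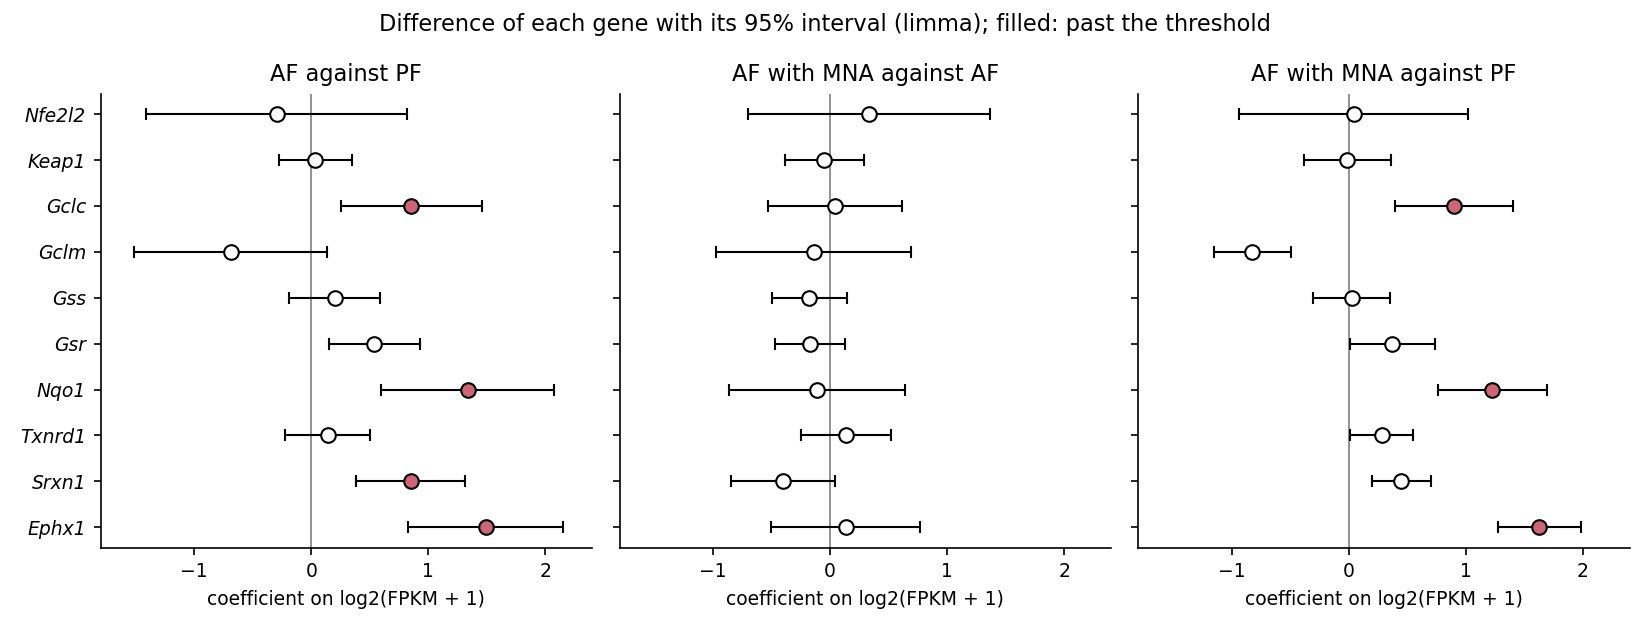
Difference of each of the 10 genes in each comparison on the log2(FPKM + 1) scale (limma coefficient, points) with its 95% confidence interval (bars), from 6 libraries per comparison. Intervals of Ephx1, Nqo1, Srxn1, Gclc and Gsr lie above 0 for AF against PF and for AF with MNA against PF, that of Txnrd1 in the latter too, the interval of Gclm lies below 0 in the latter (−1.16 to −0.49), and all intervals of AF with MNA against AF span 0.

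Gclc and Gclm encode the subunits of a single enzyme, and their levels per transcript length were set against each other in each library, a ratio chosen after the values had been seen and given without a test. Gclc over Gclm was 0.310, 0.224 and 0.250 in the PF livers, 0.994, 0.638 and 1.14 in the AF livers and 1.23, 1.14 and 0.774 with MNA. No PF library reached the lowest library of alcohol-fed mice. The group means were 0.261 ± 0.0443 in PF, 0.924 ± 0.258 in AF and 1.05 ± 0.239 with MNA (SD, n = 3). In AF replicate 2 both subunits were high, at 9.51 and 14.9 FPKM, whereas AF replicate 3 had Gclc at 7.89 and Gclm at 6.92 FPKM.

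**Figure D3:**
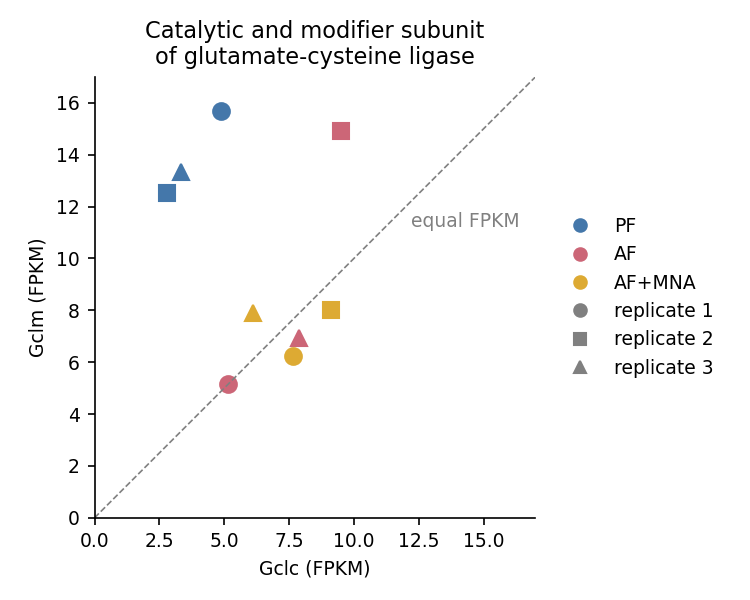
Gclm (y axis, FPKM) against Gclc (x axis, FPKM), 1 point per library, coloured by group, with a dashed line of equal FPKM. The 3 PF libraries sit at high Gclm and low Gclc (ratio 0.224 to 0.310), the libraries of alcohol-fed mice at higher Gclc for their Gclm (ratio 0.638 to 1.23), and AF replicate 2 is high in both.

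The alcohol-fed livers did not raise the 10 genes by one common factor. AF replicate 2 had the highest value of its group for Keap1, Gclc, Gclm, Gss, Txnrd1 and Srxn1 and the lowest for Nfe2l2 and Ephx1. AF replicate 1 was highest for Nfe2l2, Gsr, Nqo1 and Ephx1 and lowest for Gclc, Gclm and Srxn1. On a log2 scale over the PF mean, AF replicate 1 stood at 2.50 for Nqo1 and 1.94 for Ephx1 but at 0.48 for Gclc and 0.98 for Srxn1. AF replicate 2 showed the other order, at 1.48 for Nqo1 and 0.93 for Ephx1 beside 1.38 for Gclc and 1.77 for Srxn1. Heme oxygenase 1 (Hmox1), a stress-induced enzyme of heme breakdown, was at 160 FPKM in that replicate against 15.8 and 10.5 FPKM in AF replicates 1 and 3. Within the MNA group the spread was narrow for Ephx1 (206 ± 13.0 FPKM) and Srxn1, both tighter than in AF. In the PF group, replicate 1 was highest for 8 of the 10 genes and replicate 2 lowest for 7. How often these libraries were highest or lowest over all tested genes was not counted.

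**Figure D4:**
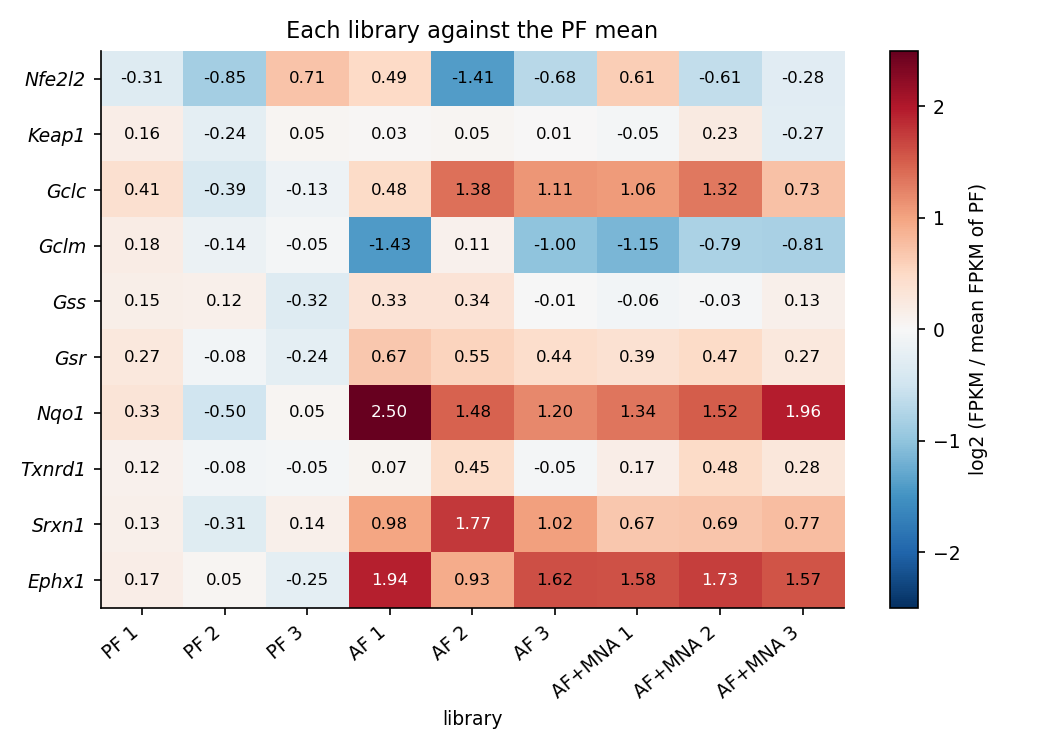
Log2 of FPKM over the PF mean for each of the 10 genes (rows) in each of the 9 libraries (columns, by group), as a colour scale centred on 0. Ephx1, Nqo1, Srxn1 and Gclc are above 0 in all 6 libraries of alcohol-fed mice, Gclm is below 0 in 5 of them, and AF replicate 1 reaches 2.50 for Nqo1.

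By level per transcript length, Ephx1 stood above all others in each group, at 66.3 ± 9.67, 195 ± 64.3 and 206 ± 13.0 FPKM in PF, AF and AF with MNA, followed by Gsr at 15.8 ± 2.93, 23.2 ± 1.86 and 20.5 ± 1.46 FPKM (SD, n = 3). In the PF livers Gsr overlapped with Gclm, and Txnrd1, Keap1, Nfe2l2, Gss and Gclc followed with neighbours that overlapped in range. Nqo1 and Srxn1 were the lowest there, at 1.78 ± 0.488 and 1.31 ± 0.217 FPKM, with overlapping ranges and apart from Gclc. In the AF livers the genes from Gclm down to Srxn1 formed a chain in which every neighbour overlapped, Nqo1 having moved up among Keap1 and Gss at 6.36 ± 3.22 FPKM. Gclc held rank 8 of 10 in PF at 3.67 ± 1.07 FPKM and rank 4 both in AF, at 7.51 ± 2.21 FPKM, and with MNA, at 7.63 ± 1.52 FPKM.

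The wider pathway was read from 6 lists that hold 122 genes in all. Of 14 tested genes that control NRF2 (the ligase partners and binding proteins of KEAP1, other degradation factors, small MAF partners and repressors), 1 was upregulated and 1 downregulated in AF against PF, and each of the next 4 lists held at most 1 called gene, beside 4.3% of all tested genes. Maff, a small MAF protein that pairs with NRF2, measured 2.44, 1.66 and 2.10 FPKM in PF livers, against 4.71, 4.76 and 4.27 in the AF group (log2 FC 1.15, adjusted p = 0.0831, limma), and Amer1 (WTX), which binds KEAP1, went from 2.04 to 0.913 FPKM (log2 FC −1.16, adjusted p = 0.381), a call lost in 4 of the 6 fits with 1 library left out, where its log2 FC ran from −1.91 to −0.74 (without AF replicate 3 and AF replicate 1). Of 14 tested genes of cysteine supply and glutathione turnover, 1 was upregulated, the efflux pump Abcc4, from 0.293 to 6.20 FPKM (adjusted p = 0.00293 by limma, log2 FC 4.40). Of 14 tested genes that use glutathione 1 was upregulated, the microsomal transferase Mgst3, from 2.53 to 14.0 FPKM (log2 FC 2.46, adjusted p = 0.125). None of the 17 tested thioredoxin system genes passed the threshold, with an unadjusted p under 0.05 by limma for 3 that were higher and 1 that was lower (11.7% of all tested genes had one). Txnip, the thioredoxin inhibitor, was among the higher, with a log2 FC of 0.96 and no overlap of the groups, and it passed the threshold in 3 of the 6 fits with 1 library left out. Of 11 tested genes of NADPH supply 1 was downregulated, malic enzyme Me1, from 56.5 to 27.5 FPKM (log2 FC −1.04, adjusted p = 0.125), which fell just short of the fold threshold in 4 of the 6 such fits, down to −0.95 without PF replicate 3. The median log2 FC of these 5 lists lay between −0.0596 and 0.0667, close to the median of all tested genes.

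The sixth list, chosen with results of these data known, named 35 further NRF2 targets, of which 28 had an entry and 25 were tested. Of the 25, 13 were upregulated, where 1.95% of all tested genes were, none was downregulated and the median log2 FC was 1.01. Among them, Gsta2, a glutathione transferase, measured 1.46, 1.48 and 2.15 FPKM in PF livers, against 34.6, 19.2 and 25.4 in the AF group (log2 FC 3.96, adjusted p = 0.00515, limma). Cyp2a5, a cytochrome P450, went from 168 to 1350 FPKM (log2 FC 3.01, adjusted p = 0.00215) and Abcc3, an exporter of glucuronides, from 29.3 to 90.7 FPKM (log2 FC 1.63, adjusted p = 0.0143). Transferases of the Gsta and Gstm families and Cyp2a5 have near-identical paralogs that can share reads, which leaves their single values uncertain. Of these families Gsta4 had a log2 FC of 2.12, Gstm2 of 1.12, Gstm3 of 2.88 and Gstm4 of 2.90. Carbonyl reductase Cbr3 was at 0.04, 0.38 and 0 FPKM in PF and 2.33 to 4.95 FPKM in AF, and the heme transporter Slc48a1 went from 9.05 to 21.6 FPKM. Ptgr1, the ferritin heavy chain Fth1, Htatip2 and Ugt2b35 were nearer the threshold, with log2 FC of 1.23, 1.00, 1.15 and 1.01. Of the 6 fits with 1 library left out, Ugt2b35 lost its call in 5, Fth1 and Htatip2 in 4 and Ptgr1 in 1, the lowest log2 FC being 0.62, 0.78, 0.82 and 0.93. Hmox1, also in this list, was higher in each AF than in each PF library but did not pass the test (log2 FC 3.39, adjusted p = 0.441, limma). Without AF replicate 2 its log2 FC was 1.15 and passed the threshold, as it also did without AF replicate 3.

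With MNA, 1 gene of the 6 lists passed the threshold against AF, Chac1, which degrades glutathione, at 2.90, 2.50 and 1.33 FPKM in AF and 0.04, 1.39 and 0.23 FPKM with MNA (log2 FC −2.02, adjusted p = 0.940, limma), with ranges that overlapped, where 1.98% of all tested genes passed. This call was lost in 4 of the 6 fits with 1 library left out, and the log2 FC of Chac1 ran from −4.05 without AF with MNA replicate 2 to −1.47 without AF with MNA replicate 1. With 1 library left out, calls were gained by Amer1 (log2 FC 1.32 without AF replicate 3), Abcc4 (−1.37 without AF with MNA replicate 1) and Gsta4 (−1.19 without AF with MNA replicate 2). The median log2 FC of the 25 NRF2 targets was −0.229 in this comparison. Against PF, 10 of the 25 were upregulated (Abcc3, Blvrb, Cbr3, Cyp2a5, Gsta2, Gsta4, Gstm3, Gstm4, Hmox1 and Htatip2), where 1.94% of all tested genes were, with a median log2 FC of 0.892. The Gsta4 call was lost in 4 of 6 fits with 1 library left out, its log2 FC being lowest at 0.94 without AF with MNA replicate 2. Abcc4, Mgst3 and Txnip were the other genes of the lists past the threshold, and none was downregulated. Txnip lost its call in 3 of 6 such fits, at the lowest with a log2 FC of 0.83 without AF with MNA replicate 2.

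**Figure D5:**
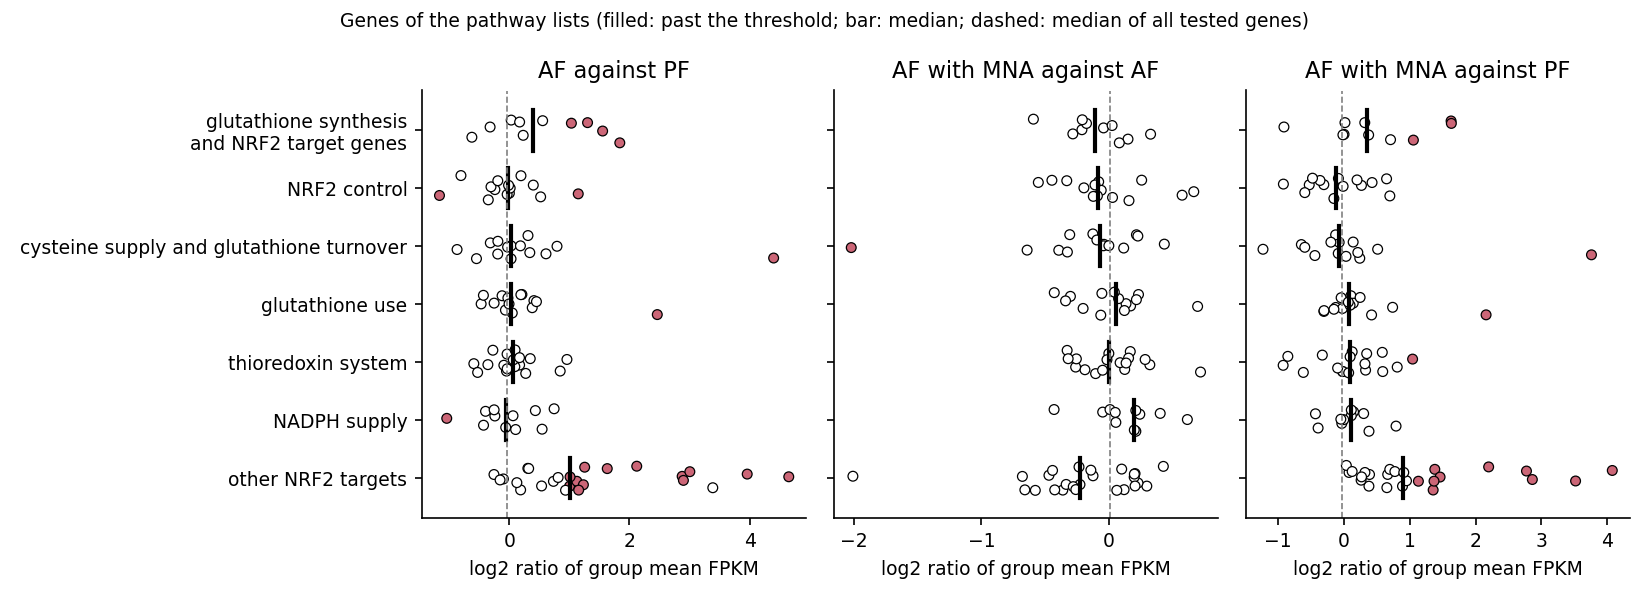
Log2 ratio of group mean FPKM (x axis) for every tested gene of the 6 lists and for the 10 genes, in panels for the 3 comparisons, filled where past the threshold, with a bar at the median of each list and a dashed line at the median of all tested genes. In AF against PF the further NRF2 targets have a median of 1.01 and the other lists lie around 0, with medians between −0.0596 and 0.0667.

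By the annotation deposited with the entries, 4 of the 10 genes (Gsr, Nqo1, Srxn1 and Txnrd1) carried the term oxidation-reduction process, as did 4.13% of 15223 entries with a term. Gsr, Nfe2l2 and Txnrd1 carried cell redox homeostasis (0.322% of the entries). Gclm, Nqo1 and Srxn1 carried response to oxidative stress (0.677% of the entries), and of these Nqo1 and Srxn1 were upregulated in the AF group.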

How the data were processed

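RNA from 9 mouse livers, 3 per group, was depleted of ribosomal RNA and sequenced paired-end with a strand-specific (dUTP) protocol. The submitters' processing notes name cutadapt 1.9, FastQC, HISAT2, StringTie 1.3.4, edgeR and TopHat. The genome build was not given in the sources used here, and 7708 of 7841 known lncRNA transcripts matched GENCODE M21 (GRCm38) in coordinates. The authors deposited gene levels as FPKM per library, rounded to 2 decimals, which leaves the depth out, and no gene-level counts were used here. Deposited coverage signal and FPKM of assembled lncRNA transcripts gave the positions and the intron sums. Deposited circRNA junction read counts, with their normalized signal, gave the total reads back as whole numbers.

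Groups came from the labels. Values were tested as log2(FPKM + 1) with limma 3.58.1 in R 4.3.3 (moderated, with intensity trend), on the 6 libraries of each comparison and on entries with a known transcript, a gene name and a mean of at least 0.5 FPKM, and adjusted by Benjamini-Hochberg. All 10 genes passed this filter. A log2 FC is the log2 ratio of mean FPKM, and coefficients and intervals, on log2(FPKM + 1), understate changes of low genes. The script was tested on simulated data. The 10 genes, the gene lists and the cell type markers were chosen with earlier results of these data known. Named genes were the 10 and every list gene past the threshold, besides Hmox1 in the AF group, which was added after its values were seen. An exact permutation test of 3 against 3 libraries cannot go below 0.1. Alternatives covered pseudocount, filter, scaling, variance model, samples, covariate, replicate number and left-out libraries. Entries of assembled transcripts alone, 3 of them with the name of 1 of the 10 genes, were kept out of the tests. Python 3.11.15 with pandas 2.3.3 and matplotlib 3.10.9 was used for the rest.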

Additional observations from a re-analysis of the deposited data

Results flagged for a closer look

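Signals outside the gene entries tested above appeared at 4 of the 10 loci. An assembled transcript on the strand opposite to Gss (chr2:155564807-155566938, 2132 bases, 143 bases of which overlap a Gss exon) reached 1.50 FPKM in AF replicate 3 and stood at 0.92 to 1.21 FPKM in PF, 0.87 to 1.50 FPKM in AF and 0.61, 0 and 0.73 FPKM with MNA. An assembled entry named Keap1 reached 3.04 FPKM in AF replicate 3, measured 1.60 to 2.38 FPKM in PF, and was listed at 0 in AF replicate 1 and in all 3 libraries with MNA. An assembled transcript opposite to Txnrd1 (chr10:82858465-82858719, 255 bases, outside its exons in GENCODE M21) was listed at 0 in the 6 PF and AF libraries and at 1.50, 0 and 0.18 FPKM with MNA, the highest being the intron-rich replicate 1. A value listed at 0 can be a failed estimate. The Gclc locus gave 1 circRNA junction read (chr9:77775079-77779635) in AF replicate 2 and 0 in the other libraries, which is under the 3 reads that a count of 0 allows. None of these was tested between groups.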

How the results depend on the processing

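For the 10 genes, 394 of 429 results under an alternative kept their direction and their side of the threshold, 11 lost a call, 1 gained one and 23 turned direction, each of those turns in a comparison where the gene was not called. With the covariate model, or with limma's coefficient in place of the log2 FC, 2 of the 4 genes passed in AF against PF and 2 of the 3 in AF with MNA against PF. With 1 library left out, 3 to 4 passed in AF against PF (without AF replicate 2 these were Ephx1 and Nqo1 upregulated and Gclm downregulated), 0 in AF with MNA against AF and 2 to 3 in AF with MNA against PF.

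Over all tested genes the calls depended on the filter on low values. In AF against PF 527 genes passed, 1183 with any value above 0, 265 at a minimum of 2 FPKM, 335 with the covariate model, 249 with the coefficient, and 516 to 764 with 1 library left out. In AF with MNA against AF 242 passed, and 675, 81, 106 and 99 under those settings, 470 without the 2 intron-rich libraries, and 211 to 367 with 1 library left out (367 without AF replicate 3). In AF with MNA against PF 477 passed, and 1104, 228, 246 and 229 under those settings, and 467 to 545 with 1 library left out. The filters change how many genes are tested; the cause of the other shifts was not tested.

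Same-numbered libraries did not deviate together (correlations −0.0802 to 0.0615), so replicate numbers were taken as names only. With the replicate number as a block, 4, 0 and 3 of the 10 genes passed in the 3 comparisons and 562, 260 and 488 of all tested genes, the adjusted p of Ephx1 in AF with MNA against PF was 0.158, and not every library correlated best with its own number.

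The directions that turned were of genes not called in that comparison. In AF with MNA against AF, Nfe2l2 was at −0.27, Htatip2 at −0.11 and Ugt2b35 at 0.10 without the intron-rich libraries, and Gclc at −0.0069 with median scaling, which also turned Keap1 to 0.011 in AF with MNA against PF. With 1 library left out, the log2 FC of AF over PF ran from −1 to 0.24 for Nfe2l2 and from −0.074 to 0.12 for Keap1. With MNA over AF it ran from −0.12 to 1.00 for Nfe2l2, −0.18 to 0.067 for Keap1, −0.19 to 0.23 for Gclc, −0.56 to 0.29 for Gclm, −0.45 to 0.28 for Nqo1, −0.15 to 0.32 for Ephx1, −0.13 to 0.37 for Txnip, −0.34 to 0.21 for Gstm4, −2.51 to 0.23 for Hmox1 and −0.063 to 0.54 for Htatip2. With MNA over PF it ran from −0.44 to 0.56 for Nfe2l2, −0.15 to 0.10 for Keap1 and −0.12 to 0.10 for Gss. With 3 libraries per group, a difference within the interval given for a gene is not excluded.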
